A study of Homo sapiens with 4 samples.

Results

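The genes described here encode the machinery that fills, docks, fuses and recycles synaptic vesicles. They were taken by symbol from a list of 44 members: proteins of the vesicle membrane, SNAREs and the factors that take SNARE complexes apart, complexins, calcium sensors, synapsins, RAB3 GTPases, scaffolds of the active zone and proteins of vesicle endocytosis. All 44 were found among the 69222 gene identifiers of the count files, and 42 had enough counts to be tested. Poly(A) RNA was measured in HEK293T, a human embryonic kidney line known to express some neuronal genes, after lentiviral delivery of a short hairpin RNA. The knockdown group (shRPRD1B, n = 2) received an shRNA against RPRD1B, a factor that binds the tail of RNA polymerase II, and the control group (shCtrl, n = 2) received a control shRNA. Both groups were thus transduced cells of the same line, and the labels do not say whether the replicates came from separate cultures, so p-values measure the spread between these libraries, which may be technical.

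At a nerve terminal, SNARE proteins on the vesicle and on the plasma membrane zip together to drive fusion, complexins and synaptotagmins make that step depend on calcium, and active zone scaffolds with UNC13 proteins prepare vesicles for it. NSF and its SNAP adaptors then separate the spent SNAREs, and dynamin, amphiphysin and synaptojanin recover the membrane. Many of these genes carry binding sites of the repressor REST, which keeps them low outside neurons, while their close relatives serve secretion in most cells.

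The libraries held between 47732913 and 65572391 counts. In the gene-by-gene comparison of replicates, the SD of the log2 ratio was 0.393 between the shRPRD1B libraries and 0.171 between the shCtrl libraries, over 8966 genes of at least 16 CPM (read counts scaled to library size). RPRD1B itself stood at 27.2 and 35.5 CPM in shRPRD1B and at 50.4 and 50.1 CPM in shCtrl, the direction of the labels, with a log2 fold change of -0.68 ± 0.16 (SE) that was not called (edgeR adjusted p = 0.448, DESeq2 adjusted p = 0.052). Of the 8 genes listed as markers of the HEK293T line, 7 reached 1 CPM in at least 1 library and LHX1 did not. Their summed level was 617 and 510 CPM in shRPRD1B and 592 and 579 CPM in shCtrl.

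Synaptophysin and complexin 1 transcripts were about 3 times as abundant in the knockdown cells. They were the 2 of the 42 tested members that rose past the threshold of edgeR's quasi-likelihood test, an adjusted p of 0.05, as 0.0295% of all 20319 tested genes did, and 0 members were called lower, against 0.0394% of all genes. DESeq2 called 7 members higher (0.619% of the 19562 genes with an adjusted p) and 0 lower (0.486%). Those 7 were SYP, CPLX1, CPLX2, SYN1, RAB3C, BSN and UNC13A.

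The list was chosen with earlier results of these data known, so shares of members above those of all genes may be partly built in. At an unadjusted edgeR p under 0.05, 18 members were higher, against 3.55% of all tested genes, and 0 were lower, against 3.94%. Both knockdown libraries lay above both control libraries for 25 members, against 20.3% of all genes, and below them for STX1A and RAB3D, 2 members, against 20.6%. The other 15 overlapped. The log2 fold change was positive for 34 of the 42 tested members and for 10257 of all 20319 tested genes. Its median was 0.29 over the 42 members and 0.00 over all tested genes. By role, it was 2.46 for the 2 complexins, 0.52 for 6 calcium sensors, 0.40 for 9 active zone proteins, 0.30 for 3 synapsins, 0.23 for 7 SNAREs and disassembly factors, 0.18 for 4 endocytosis proteins, 0.02 for 4 RAB3 genes and 0.01 for 7 vesicle membrane proteins. The mean of the SNAREs and disassembly factors was negative, at -0.05, with NSF at -2.61 among them. The counts of NSF cannot be read as the level of its transcript, as described below. Apart from NSF, the values of this group ran from -0.13 for STX1A to 1.06 for SNAP25.

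These figures do not describe all 44 members. SYT4 passed the count filter in the shRPRD1B libraries alone, so that it had to be higher. SV2C and CPLX2 passed it in both shRPRD1B libraries and in 1 shCtrl library. The shCtrl libraries alone would not have admitted them, but their direction was not fixed in advance. SYT4, SV2C and CPLX2 are among the 25 members above their controls and the 34 with positive values. Without them the median was 0.24, and 15 of 39 members were higher at an unadjusted p under 0.05. By role, the median without them was 1.73 for complexins (CPLX1 alone), 0.50 for calcium sensors and 0.00 for vesicle membrane proteins. SV2B, with 2 and 0 counts in shRPRD1B and 0 in both shCtrl libraries, and RIMBP2, with 1 and 3 counts in shRPRD1B and 2 and 2 counts in shCtrl, were not tested. Counts of calls, higher and lower, moved with single libraries, over all genes as well as among the members. In such fits the group left with a single library borrows its spread from the other group. The members' median log2 fold change was 0.26 without shCtrl 1 and 0.35 without shCtrl 2. It was 0.34 without shRPRD1B 1 and 0.32 without shRPRD1B 2.

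Synaptophysin (SYP, ENSG00000102003.12, chromosome X, 49187804 to 49200259 in GRCh38) is an abundant membrane protein of synaptic vesicles. It had 77.3 and 78.0 CPM in shRPRD1B and 27.5 and 24.2 CPM in shCtrl. The knockdown libraries were nearly equal and lay far above both control libraries. Its mean was 77.6 ± 0.559 CPM in shRPRD1B and 25.9 ± 2.33 CPM in shCtrl (SD, n = 2), a log2 fold change of 1.59 with a 95% interval from 1.27 to 1.90 (edgeR adjusted p = 0.0434, DESeq2 adjusted p = 4.85e-16). The edgeR call was lost without shCtrl 2 (adjusted p = 0.0814) and with edgeR's older quasi-likelihood fit (adjusted p = 0.054), limma voom (adjusted p = 0.0617) and a filter of 5 CPM (adjusted p = 0.0621).

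Complexin 1 (CPLX1, ENSG00000168993.15, chromosome 4, 784957 to 826198) binds assembled SNARE complexes and holds them ready for calcium. It had 42.8 and 46.9 CPM in shRPRD1B and 13.7 and 13.3 CPM in shCtrl. The groups lay far apart, with close replicates in each. Its log2 fold change was 1.73, from 1.41 to 2.06 (edgeR adjusted p = 0.0414, DESeq2 adjusted p = 3.88e-17). It was called when any single library was left out, and not with limma voom (adjusted p = 0.0617) or with a filter of 5 CPM (adjusted p = 0.0551).

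Its close relative complexin 2 (CPLX2) was near the detection limit in the control cells, with 270 and 257 counts in shRPRD1B against 38 and 8 counts in shCtrl. In CPM this was 4.12 and 4.69 in shRPRD1B and 0.802 and 0.164 in shCtrl. Both knockdown libraries lay above both control libraries, while the control libraries differed from each other about 5-fold. The fitted log2 fold change was 3.19, with a 95% interval from 1.96 to 4.42 (edgeR adjusted p = 0.213, DESeq2 adjusted p = 3.69e-07), and it was 4.72 without shCtrl 1 and 2.45 without shCtrl 2.

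UNC13A, the neuronal priming factor that opens syntaxin 1 for SNARE assembly, showed the largest ratio among members above 1 CPM in every library. It had 14.9 and 24.4 CPM in shRPRD1B and 2.11 and 2.84 CPM in shCtrl. Its lowest knockdown value was more than 5 times its highest control value. The log2 fold change was 2.98, from 2.19 to 3.78 (edgeR adjusted p = 0.0785, DESeq2 adjusted p = 1.88e-21). UNC13B, the form made in many tissues, had 78.9 and 96.5 CPM in shRPRD1B and 65.0 and 67.5 CPM in shCtrl, with a log2 fold change of 0.40 ± 0.14 (SE) at an edgeR adjusted p of 0.636.

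Bassoon (BSN), a giant scaffold of the active zone, had 31.1 and 41.9 CPM in shRPRD1B and 12.9 and 16.05 CPM in shCtrl. The groups did not overlap, with a log2 fold change of 1.34, from 0.83 to 1.84 (edgeR adjusted p = 0.208, DESeq2 adjusted p = 5.96e-07). Piccolo (PCLO), the scaffold most like bassoon, had 15.4 and 23.1 CPM in shRPRD1B on either side of 17.9 and 18.5 CPM in shCtrl, and its log2 fold change was 0.08 ± 0.22 (SE).

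RAB3C, a GTPase on synaptic vesicles, had 11.6 and 10.9 CPM in shRPRD1B and 3.04 and 2.53 CPM in shCtrl. The values were tight within each group and about 4-fold apart. The log2 fold change was 2.02, from 1.53 to 2.51 (edgeR adjusted p = 0.0775, DESeq2 adjusted p = 1.82e-11). With the correction for exon length and GC content that was added after the data had been seen, edgeR called RAB3C and UNC13A too, at adjusted p of 0.0436 and 0.0409. That fit called more genes of every kind, 31 higher and 22 lower, against 6 and 8 in the main fit.

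Synapsin I (SYN1), which tethers vesicles to each other and to actin, had 1.95 and 2.43 CPM in shRPRD1B and 0.591 and 0.740 CPM in shCtrl. These were 128 and 133 counts in shRPRD1B against 28 and 36 counts in shCtrl, so the groups were apart at low depth. The log2 fold change was 1.71, from 0.92 to 2.49 (edgeR adjusted p = 0.322, DESeq2 adjusted p = 0.0416). Synapsin II (SYN2) and synapsin III (SYN3) lay above the controls in both knockdown libraries by smaller amounts, with log2 fold changes of 0.30 ± 0.16 and 0.24 ± 0.21 (SE).

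**Figure D1:**
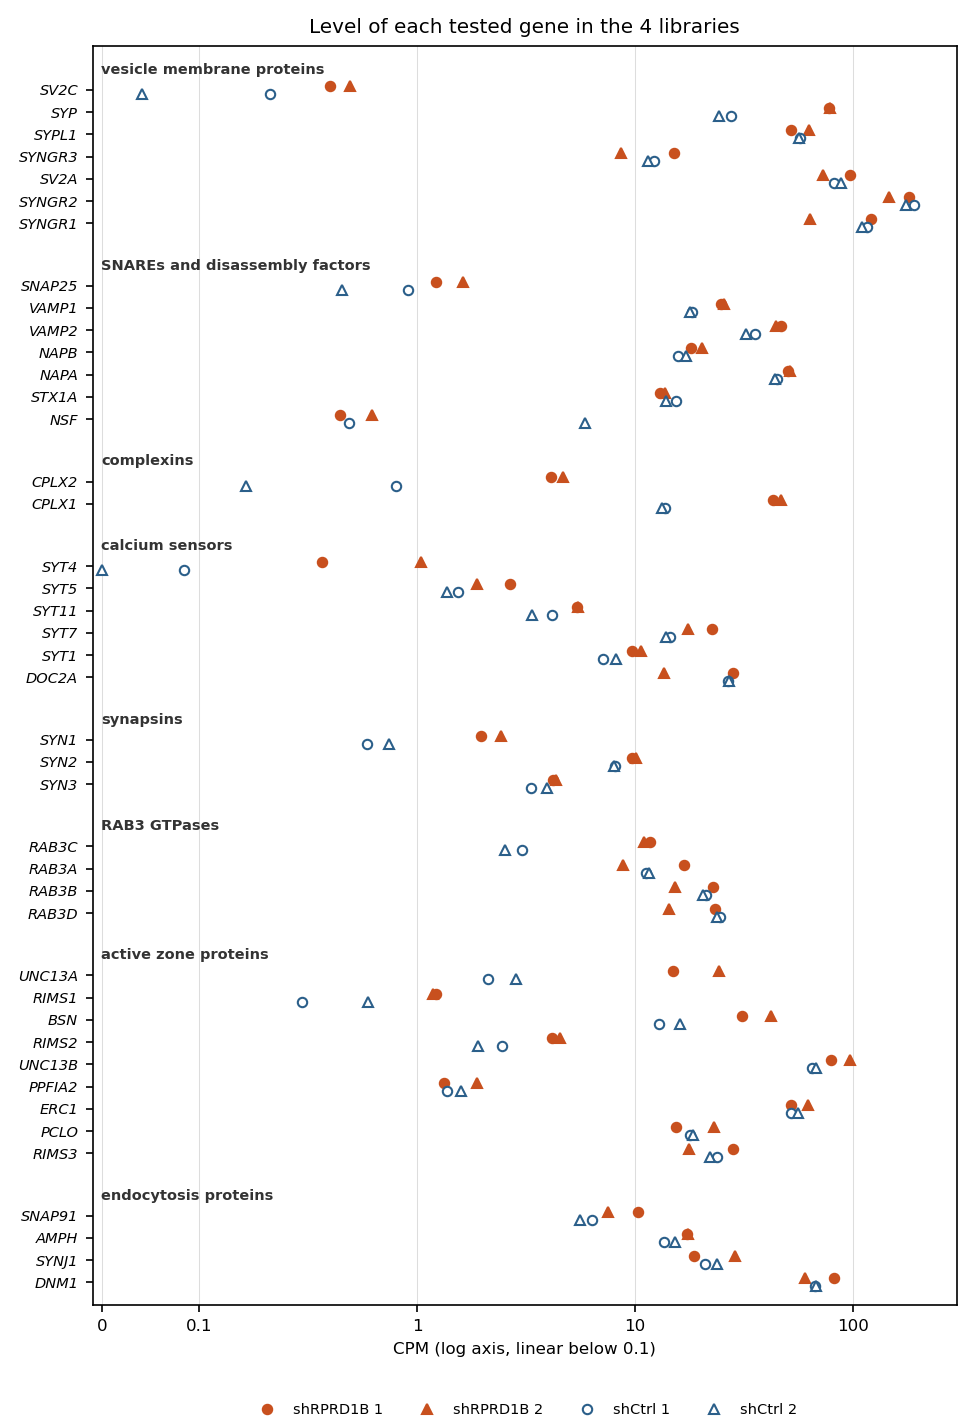
Level of each of the 42 tested members in CPM (horizontal log axis, linear below 0.1), by role; filled symbols are the shRPRD1B libraries and open symbols the shCtrl libraries, with circles for replicate 1 and triangles for replicate 2. SYP, CPLX1, CPLX2, RAB3C, UNC13A, BSN and SYN1 stand to the right in both shRPRD1B libraries, while SYNGR1, DOC2A and the other RAB3 genes have replicate 2 of shRPRD1B below their controls.

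Promoter sequence was examined because several of these genes are textbook targets of REST, whose binding element (RE1) joins a left arm, TTCAGCACC, and a right arm that begins GGACAG, usually with a pair of free letters between them. The windows are RefSeq's, GRCh38.p14, running from 250 bases before to 50 bases after the start of the gene, and 37 of the 44 members matched by symbol. The promoters of SYN1, UNC13A and BSN are shown because they hold RE1 letters and their genes rose with DESeq2, and that of SYP because edgeR called the gene. Each is written 5′ to 3′ on the strand of its gene, and capitals mark the RE1 core or an arm of it, on either strand.
SYN1, chrX:47619808-47620107, minus strand: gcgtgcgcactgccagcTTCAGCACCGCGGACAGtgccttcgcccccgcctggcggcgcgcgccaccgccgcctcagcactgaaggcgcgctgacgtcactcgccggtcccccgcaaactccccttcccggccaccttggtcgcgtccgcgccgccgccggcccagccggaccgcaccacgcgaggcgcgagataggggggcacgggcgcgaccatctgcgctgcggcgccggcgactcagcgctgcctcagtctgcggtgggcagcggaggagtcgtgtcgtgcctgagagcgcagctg
UNC13A, chr19:17688305-17688604, minus strand: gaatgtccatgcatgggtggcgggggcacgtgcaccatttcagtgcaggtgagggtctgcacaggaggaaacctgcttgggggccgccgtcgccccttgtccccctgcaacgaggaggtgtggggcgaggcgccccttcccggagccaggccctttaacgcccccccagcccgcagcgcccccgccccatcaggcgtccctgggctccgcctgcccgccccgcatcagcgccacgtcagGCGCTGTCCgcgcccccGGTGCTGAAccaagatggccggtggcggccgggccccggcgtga
BSN, chr3:49554227-49554526, plus strand: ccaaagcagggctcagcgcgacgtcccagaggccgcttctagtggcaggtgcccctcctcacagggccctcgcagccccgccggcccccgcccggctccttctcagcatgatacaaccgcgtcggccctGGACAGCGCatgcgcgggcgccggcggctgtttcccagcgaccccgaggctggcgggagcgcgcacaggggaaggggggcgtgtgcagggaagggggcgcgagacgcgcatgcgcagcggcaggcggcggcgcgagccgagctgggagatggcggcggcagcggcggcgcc
SYP, chrX:49200144-49200443, minus strand: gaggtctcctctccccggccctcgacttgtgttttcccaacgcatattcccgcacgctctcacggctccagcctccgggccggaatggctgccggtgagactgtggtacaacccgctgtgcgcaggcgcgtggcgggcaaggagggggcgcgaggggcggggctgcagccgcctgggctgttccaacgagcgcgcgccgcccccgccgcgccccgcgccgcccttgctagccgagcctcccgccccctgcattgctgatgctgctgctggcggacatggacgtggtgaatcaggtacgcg

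The SYN1 window held the whole core, both arms with 2 letters between them, from -233 to -217 relative to the start. On both strands that core was in 5 of 35116 windows (0.0142%), and in 1 of the 37 members' promoters. UNC13A held the left arm, at 7 to 15 bases after the start, and an extended right arm, GGACAGCGC, at -11 to -3, both on the opposite strand, in the order of the element but more widely spaced. BSN held the extended right arm alone, at -121 to -113. The left arm was in 0.376% and the extended right arm in 0.581% of all windows, and the SYP window held neither. These are matches of letters and do not show that a factor was bound.

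**Figure D2:**
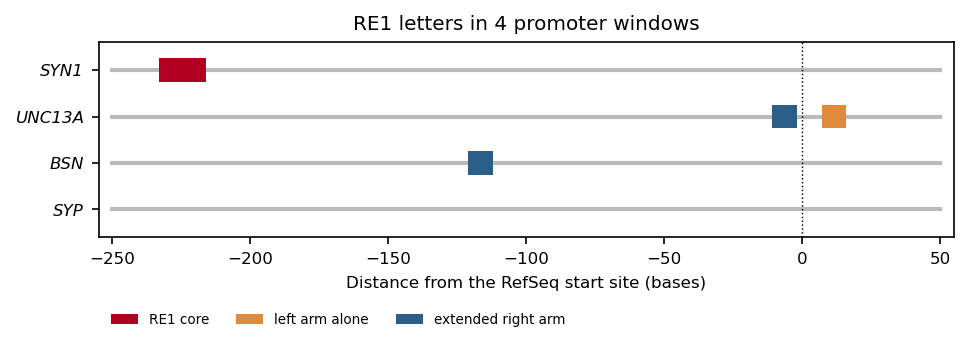
Positions of the RE1 core and its arms in the promoter windows of SYN1, UNC13A, BSN and SYP, in bases from the RefSeq start site (dotted line). The core of SYN1 lies from -233 to -217, the arms of UNC13A flank the start, BSN has the extended right arm alone and SYP has none.

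The same core was looked for in the GENCODE 29 transcripts, where it was found in 35 of 58676 genes (0.0596%) on either strand, 1 of them a member. That member was SYT4, which encodes a synaptotagmin that binds little calcium, and the core lies upstream of the start codon in transcript SYT4-201. It is shown with its flanks, the core in capitals.
SYT4, chr18:43277290-43277319, minus strand: tttcccTTCAGCACCTCGGACAGaacacgc

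SYT4 had 24 and 57 counts in shRPRD1B against 4 and 0 counts in shCtrl, which is 0.366 and 1.04 CPM in shRPRD1B against 0.0844 and 0 CPM in shCtrl. Transcripts were thus close to absent from the control libraries, and the fitted log2 fold change of 3.96, with a 95% interval from 1.28 to 6.63, rests on those few counts (edgeR adjusted p = 0.525). That value was 8.28 without shCtrl 1 and 2.99 without shCtrl 2. REST itself had 33.7 and 46.2 CPM in shRPRD1B and 39.7 and 47.9 CPM in shCtrl. Its groups overlapped, with a log2 fold change of -0.13, from -0.61 to 0.34 (edgeR adjusted p = 0.862).

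**Figure D3:**
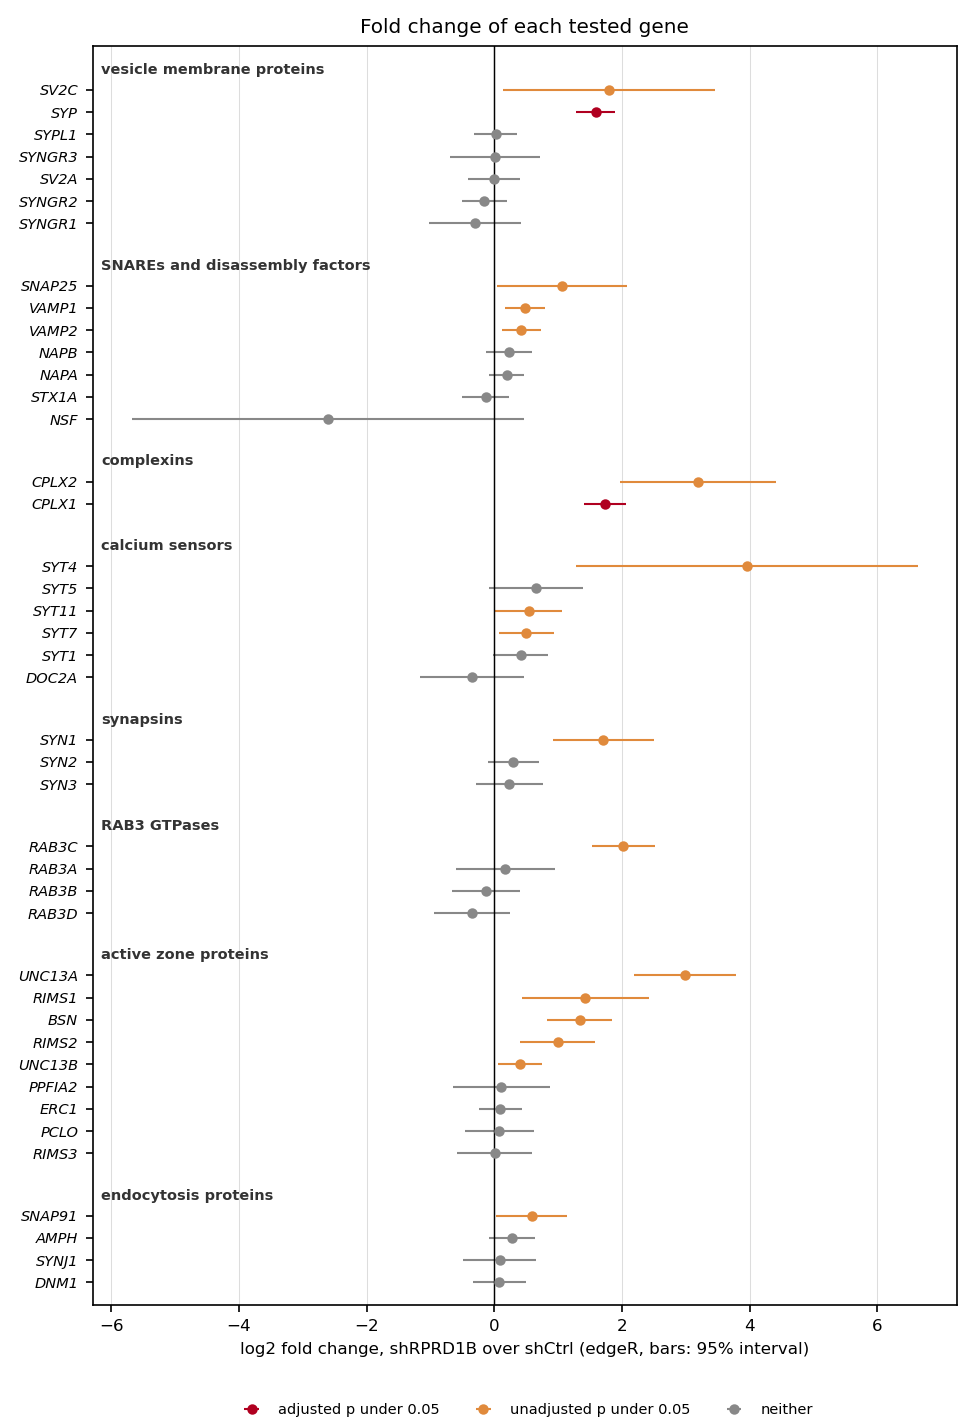
Log2 fold change of the 42 tested members, shRPRD1B over shCtrl, with 95% intervals from the edgeR fit, by role. SYP and CPLX1 passed an adjusted p of 0.05, a further 16 members had an unadjusted p under 0.05 with positive values, and the wide interval of NSF spans 0.

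Of the 7 tested vesicle membrane proteins, SYP and SV2C were higher at an unadjusted p under 0.05. SV2C, a rarer form of SV2A, had 0.397 and 0.493 CPM in shRPRD1B and 0.211 and 0.0411 CPM in shCtrl (log2 fold change 1.80 ± 0.67, SE, edgeR adjusted p = 0.66). Its value was 3.36 without shCtrl 1 and 1.06 without shCtrl 2. SV2A, a transporter-like glycoprotein that is the binding site of levetiracetam, had 97.1 and 72.8 CPM in shRPRD1B and 82.2 and 88.1 CPM in shCtrl, so the groups overlapped. Synaptogyrin 1 (SYNGR1), a relative of synaptophysin, had 121 and 63.6 CPM in shRPRD1B and 116 and 110 CPM in shCtrl, with the second knockdown library alone below the controls. SYNGR3 showed the same split, at 15.2 and 8.59 CPM in shRPRD1B against 12.2 and 11.5 CPM in shCtrl. SYPL1 and SYNGR2, the widely expressed relatives of synaptophysin and synaptogyrin, had log2 fold changes of 0.02 ± 0.13 and -0.16 ± 0.14 (SE).

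Of the SNAREs, the vesicle proteins VAMP1 and VAMP2 and the plasma membrane protein SNAP25 were higher at an unadjusted p under 0.05. None was called over all genes. VAMP2, the main vesicle SNARE of the brain, had 46.7 and 44.1 CPM in shRPRD1B and 35.5 and 32.1 CPM in shCtrl (0.42 ± 0.12, edgeR adjusted p = 0.577). VAMP1 had 24.7 and 25.5 CPM in shRPRD1B and 18.2 and 17.9 CPM in shCtrl (0.48 ± 0.13, adjusted p = 0.528). For both, the groups were apart and the replicates close, while 13.2% of the exon bases of VAMP2 and 9.47% of those of VAMP1 are shared with other genes. SNAP25 had 1.22 and 1.62 CPM in shRPRD1B and 0.908 and 0.452 CPM in shCtrl (1.06 ± 0.41, adjusted p = 0.66), and it moved to 1.64 without shCtrl 1 and 0.64 without shCtrl 2.

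Syntaxin 1A (STX1A), the plasma membrane partner of SNAP25, did not follow it. It had 13.0 and 13.8 CPM in shRPRD1B and 15.4 and 13.9 CPM in shCtrl, a log2 fold change of -0.13 with a 95% interval from -0.51 to 0.24. Of its exon bases, 17.9% overlap BUD23 on the opposite strand, which had between 8131 and 11792 counts. The strand setting of the counting is not given in the sources used here. Other members share exon bases too, with 29.8% in NAPA, 24.9% in RAB3D and 20.5% in PPFIA2. On the opposite strand, RAB3A overlaps MPV17L2 (3346 to 4875 counts) over 9.08% of its exon bases. DOC2A overlaps INO80E (7321 to 10367 counts) over 4.44%. The adaptors NAPA and NAPB, which recruit NSF, were at 0.19 ± 0.11 and 0.23 ± 0.15, both above the controls in both libraries.

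NSF, the ATPase that takes SNARE complexes apart in every cell, had only 29 and 34 counts in shRPRD1B and 23 and 288 counts in shCtrl. The values were 0.443 and 0.620 CPM in shRPRD1B and 0.486 and 5.92 CPM in shCtrl, so that shCtrl 2 alone was high. VAMP7, a SNARE outside the list of members, showed the same split, with 46 and 46 counts in shRPRD1B and 34 and 394 counts in shCtrl. Why shCtrl 2 stood apart for both was not tested. NSF has a near-identical copy elsewhere in the human genome, and how reads shared by copies were counted is not given in the sources used here. The counts of NSF thus cannot be read as the level of its transcript.

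Among the calcium sensors, SYT7 and SYT11 were higher at an unadjusted p under 0.05, as was SYT4. SYT7, a high-affinity sensor of slow release, had 22.4 and 17.5 CPM in shRPRD1B and 14.5 and 13.8 CPM in shCtrl (0.50 ± 0.17, edgeR adjusted p = 0.645). SYT11, which does not bind calcium, had 5.40 and 5.47 CPM in shRPRD1B and 4.16 and 3.35 CPM in shCtrl (0.54 ± 0.21, adjusted p = 0.664). SYT1, the fast sensor of central synapses, had 9.69 and 10.6 CPM in shRPRD1B and 7.11 and 8.16 CPM in shCtrl, with an interval of the log2 fold change from -0.02 to 0.84. SYT5 also lay above the controls in both libraries (0.65 ± 0.30). DOC2A, a soluble high-affinity calcium sensor, had 28.2 and 13.6 CPM in shRPRD1B and 26.7 and 26.9 CPM in shCtrl, so that only the second knockdown library stood apart.

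In the RAB3 family beside RAB3C, RAB3A had 16.8 and 8.81 CPM in shRPRD1B on either side of 11.2 and 11.6 CPM in shCtrl. RAB3B had 22.8 and 15.2 CPM in shRPRD1B and 21.2 and 20.5 CPM in shCtrl. RAB3D, a form of secretory cells outside the brain, had 23.4 and 14.3 CPM in shRPRD1B and 24.4 and 23.8 CPM in shCtrl. In all 3 the second knockdown library was the lowest of the 4, and their 95% intervals spanned 0. Whether RAB3C differed from its relatives was not tested.

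At the active zone, 5 of the 9 tested members were higher at an unadjusted edgeR p under 0.05. Beside UNC13A, UNC13B and BSN these were RIMS1 and RIMS2, which bind RAB3 and recruit calcium channels. All 9 had positive values, as had 10257 of all 20319 tested genes, and the smallest was 0.00 ± 0.24 (SE), for RIMS3. RIMS1 had 1.22 and 1.19 CPM in shRPRD1B and 0.296 and 0.596 CPM in shCtrl (1.42 ± 0.40, edgeR adjusted p = 0.564). RIMS2 had 4.14 and 4.52 CPM in shRPRD1B and 2.45 and 1.91 CPM in shCtrl (0.99 ± 0.24, adjusted p = 0.467). Both were about 2-fold or more higher with no overlap. RIMS3, a short RIM that lacks the RAB3-binding part, had 28.1 and 17.6 CPM in shRPRD1B and 23.6 and 22.1 CPM in shCtrl. ERC1 and the liprin PPFIA2 were at 0.09 ± 0.14 and 0.10 ± 0.31.

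Of the endocytosis proteins, SNAP91 (AP180), a clathrin adaptor of nerve terminals, had 10.3 and 7.52 CPM in shRPRD1B and 6.33 and 5.59 CPM in shCtrl (0.58 ± 0.22, edgeR adjusted p = 0.66). Amphiphysin (AMPH) lay slightly above its controls at 0.27 ± 0.14. Dynamin 1 (DNM1) had 81.7 and 60.2 CPM in shRPRD1B and 67.1 and 67.4 CPM in shCtrl. Synaptojanin 1 (SYNJ1) had 18.5 and 28.9 CPM in shRPRD1B and 20.9 and 23.9 CPM in shCtrl, and neither DNM1 nor SYNJ1 separated the groups.

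Levels of different genes were compared per kilobase of exon (RPKM). In shRPRD1B the highest members were SYNGR2 at 40.1 ± 6.001, SYPL1 at 20.5 ± 2.67, CPLX1 at 18.5 ± 1.19, SV2A at 17.6 ± 3.57 and SYP at 14.9 ± 0.107 RPKM (SD, n = 2). In shCtrl they were SYNGR2 at 44.8 ± 2.50, SYPL1 at 20.2 ± 0.113, SV2A at 17.6 ± 0.863, SYNGR1 at 16.3 ± 0.608 and VAMP2 at 10.4 ± 0.738 RPKM. The ranks of CPLX1, SYPL1 and SV2A in shRPRD1B were within their spread. That of SYP was within the spread of SV2A and of SYNGR1, which had 13.3 ± 5.82 RPKM in shRPRD1B. CPLX1 held rank 3 in shRPRD1B and rank 9 in shCtrl among the 44 members, SYP rank 5 and rank 12, and UNC13A rank 24 and rank 34. UNC13A stayed below UNC13B in RPKM, at 1.76 against 4.89 in shRPRD1B and 0.221 against 3.70 in shCtrl. CPLX2 likewise stayed far below CPLX1, at 0.620 RPKM in shRPRD1B and 0.0681 RPKM in shCtrl.

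The knockdown libraries were close to each other for some members and apart for others. Set against the mean of shCtrl on the log2 CPM scale, the median over the 42 members was 0.32 in shRPRD1B 1 and 0.34 in shRPRD1B 2. SYP stood at 1.58 and 1.59 in shRPRD1B 1 and 2, CPLX1 at 1.66 and 1.79, RAB3C at 2.06 and 1.97, and UNC13A at 2.59 and 3.30. SYNGR1, SYNGR3, DOC2A, RAB3A, RAB3D and RIMS3 were over 1.5-fold higher in shRPRD1B 1 than in shRPRD1B 2, and SYT4, PCLO, UNC13A and SYNJ1 over 1.5-fold lower. These were 6 and 4 of the 42 members, against 2796 and 1700 of the 18958 tested genes with a known GC content, so the split was not particular to the members. Across the 42 members the ratio of shRPRD1B 1 to shRPRD1B 2 had a Spearman correlation of 0.43 with the GC content of the longest transcript. Across those 18958 genes the correlation was 0.29, as a description over genes of the same libraries. In the fit corrected for exon length and GC content, edgeR called SYP, CPLX1, RAB3C and UNC13A higher. Over all of the 18958 genes that fit called 31 higher and 22 lower, and the main fit called 6 and 8 of its 20319. The part of base composition in these differences was not tested.

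**Figure D4:**
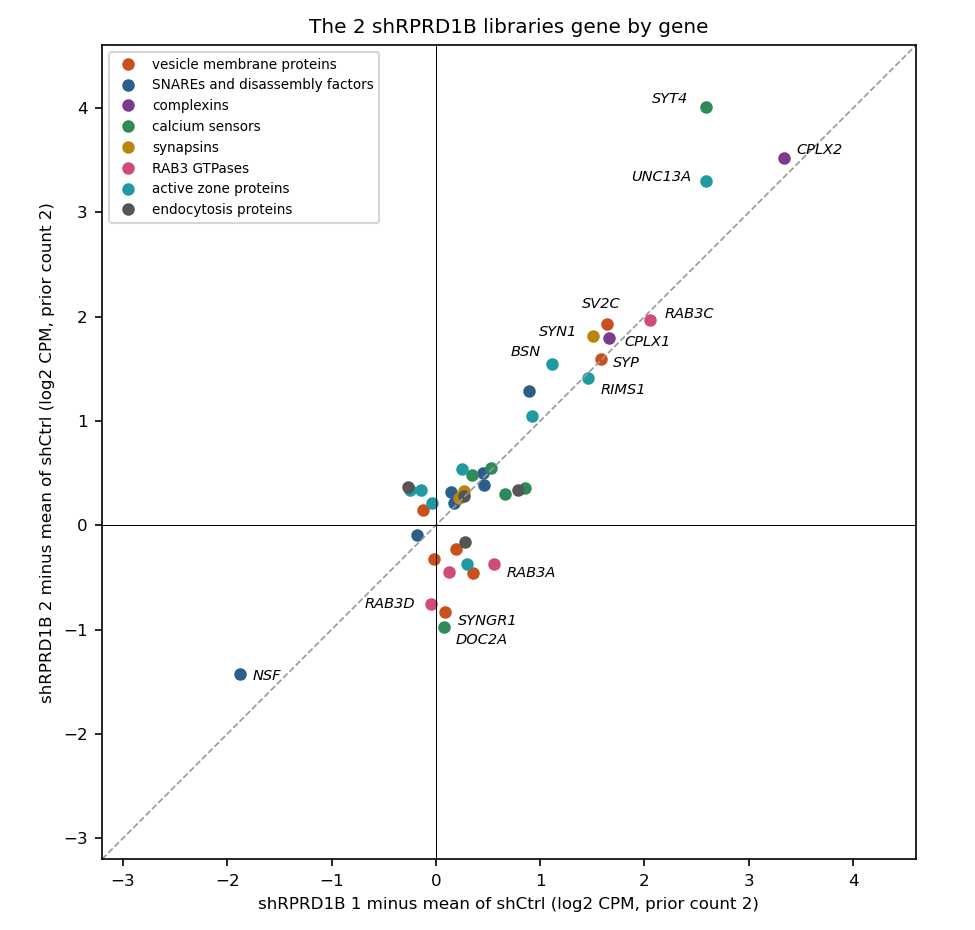
Each tested member in shRPRD1B 1 (horizontal) and shRPRD1B 2 (vertical), both minus the mean of shCtrl in log2 CPM with a prior count of 2, coloured by role; the dashed line marks equal values. CPLX1, SYP, RAB3C and CPLX2 lie close to the line, UNC13A and SYT4 above it, SYNGR1 and DOC2A near 0 in shRPRD1B 1 but at -0.83 and -0.98 in shRPRD1B 2, and RAB3A at 0.56 and -0.37 in shRPRD1B 1 and 2.

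A wider set of 118 genes of vesicle docking, fusion, loading and recycling was read from the same fit. Of these, 103 were tested, edgeR called none over all genes, and 8 were higher and 6 lower at an unadjusted p under 0.05, against 3.55% and 3.94% of all tested genes. Their median log2 fold change was 0.04 and their mean -0.02, with VAMP7, which was high in shCtrl 2 alone, at -2.53 among them. In both libraries 22 genes lay above and 16 below the controls, against 20.3% and 20.6% of all genes. DESeq2 called 1 higher and 1 lower. SYT14, a synaptotagmin that does not bind calcium, had 17.3 and 19.8 CPM in shRPRD1B and 7.62 and 8.67 CPM in shCtrl (1.19 ± 0.17, edgeR adjusted p = 0.173, DESeq2 adjusted p = 2.26e-05). VAMP8, a SNARE of endosomes and of secretion outside neurons, had 13.6 and 9.32 CPM in shRPRD1B and 25.6 and 22.1 CPM in shCtrl (-1.05 ± 0.22, edgeR adjusted p = 0.388, DESeq2 adjusted p = 0.00179). Neither overlapped between groups.

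Further members of that set with a small unadjusted p went both ways. The active zone protein RIMS4 had 117 and 121 CPM in shRPRD1B and 85.4 and 86.6 CPM in shCtrl (0.47 ± 0.11). The secretory carrier protein SCAMP5 was at 0.54 ± 0.13, and DNAJC5, the chaperone of SNAP25 known as cysteine string protein, at 0.38 ± 0.11. SYT2, SYT6, SYT9 and STON2 were also higher, at larger unadjusted edgeR p still under 0.05. Their values were 0.65 ± 0.24, 0.79 ± 0.30, 0.57 ± 0.23 and 0.39 ± 0.15. On the other side were SH3GL1 (endophilin A2), with 165 and 164 CPM in shRPRD1B and 227 and 224 CPM in shCtrl (-0.46 ± 0.10), and STX12, an endosomal syntaxin (-0.54 ± 0.12). The RAB27 effectors SYTL5 and SYTL3 were at -1.23 ± 0.30 and -0.81 ± 0.26, and the PDZ scaffold LIN7A at -0.62 ± 0.19. All of these had an edgeR adjusted p of at least 0.419.

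Markers of other cell types were read in the same libraries. Of 16 neuronal markers, 12 were tested, and RBFOX3, ELAVL4 and INA were higher at an unadjusted edgeR p under 0.05 with none lower. Over all tested genes the shares were 3.55% higher and 3.94% lower. TUBB3, NEFH, SLC17A7 and ENO2 had negative log2 fold changes, of -0.44, -0.66, -0.33 and -0.03, and the other tested markers positive ones. ELAVL4, with 25 and 20 counts in shRPRD1B and 2 and 7 counts in shCtrl, passed the count filter through the shRPRD1B libraries alone. The summed level of the neuronal list was 153 and 130 CPM in shRPRD1B and 114 and 117 CPM in shCtrl, 8 of its markers stayed under 1 CPM in every library, and none was at 0 throughout. Of 11 neuroendocrine markers, 5 were tested and 2 were higher at the same threshold, the granule proteins SCG3 and CHGB. SCG3 had 7.42 and 12.9 CPM in shRPRD1B and 0.760 and 0.719 CPM in shCtrl. CHGB had 3.40 and 5.18 CPM in shRPRD1B and 0.570 and 0.616 CPM in shCtrl. INSM1 had 18.8 and 9.01 CPM in shRPRD1B and 16.4 and 16.5 CPM in shCtrl, with a log2 fold change of -0.24. DBH was at -0.28 and PCSK2 at 0.14. That list summed to 31.0 and 28.6 CPM in shRPRD1B and 18.4 and 19.1 CPM in shCtrl, with 8 of its markers under 1 CPM in every library.

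Glial markers summed to 11.0 and 7.33 CPM in shRPRD1B and 9.63 and 10.2 CPM in shCtrl, with MOG at 0 and none of the 5 tested of 8 at an unadjusted p under 0.05. Of 6 fibroblast markers, 4 were tested, and COL1A1 and LUM were lower at that threshold, against 3.94% of all tested genes. COL1A2 was at 0, and the sum was 25.4 and 23.5 CPM in shRPRD1B and 38.9 and 34.5 CPM in shCtrl. Leukocyte markers summed to 3.33 and 1.97 CPM in shRPRD1B and 3.59 and 3.35 CPM in shCtrl, and the 1 tested of 6 had no unadjusted p under 0.05. In RNA from whole cultures, more cells of a type and more RNA per cell cannot be told apart, and the part of the neuronal and neuroendocrine markers in the differences of SYP, CPLX1 and their neighbours was not tested.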

How the data were processed

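RNA from 4 HEK293T samples (2 shRPRD1B, 2 shCtrl) was read from deposited whole-number read counts per gene, made by the authors with Trim Galore, HISAT2 and featureCounts on hg38, per the submitters' processing notes. Tool versions, annotation and strandedness were not given in the sources used here. The totals of 47732913 to 65572391 counts per library set the precision.

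Symbols were matched by identifier without its version (62686 of 69222). Counts were fitted with edgeR 4.0.16 in R 4.3.3, using TMM factors, filterByExpr with a minimum count of 10, a robust quasi-likelihood fit with the group as its only term, and Benjamini-Hochberg adjustment over 20319 genes at a threshold of 0.05. CPM used TMM-scaled library sizes, and the log2 CPM of single libraries a prior count of 2. RPKM used the merged exons of GENCODE 29. DESeq2 1.42.0, limma voom (limma 3.58.1), other scalings and filters, the replicate number as a block and leaving out each library were alternatives. The older edgeR fit and a correction for exon length and GC content (mgcv 1.9.3) were added after seeing the data. The fit was tested on simulated data. No exact permutation of 2 against 2 libraries can give a two-sided p under 0.333. No libraries were duplicates: chi-square over its degrees of freedom was 87.0 between the shRPRD1B libraries and 8.18 between the shCtrl libraries.

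The members, the gene lists and the rule for named genes were chosen with earlier results of these data known. That rule took RPRD1B, REST, every member called by edgeR or DESeq2, at an unadjusted edgeR p under 0.05, or at least 2-fold apart without overlap at a mean of 1 CPM, and from the wider set the called genes and the next 8 by p. The promoters printed were chosen after their matches were seen.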

Additional observations from a re-analysis of the deposited data

How the results depend on the processing

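Of the genes named by the rule, 30 in all, only REST turned its sign under the alternatives run: it moved between -0.377 and 0.0803 as single libraries were left out, with positive values of 0.01 without shCtrl 2 and 0.0803 without shRPRD1B 1. Other scalings left both calls among the members as they were, and under no setting did the median of all genes move by 0.1. Over all genes, edgeR called 6 higher and 8 lower. DESeq2 called 121 higher and 95 lower, limma voom 0 and 0 (1460 at an unadjusted p under 0.05), no low-count filter 23 and 17, and a filter of 5 CPM in 2 libraries 0 and 0 (874 at an unadjusted p under 0.05). With the replicate block there were 85 higher and 56 lower, with the length and GC correction 31 and 22, and the older fit called 3 lower. Leaving out a library gave 12 to 3139 higher and 36 to 3096 lower.

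Of the members, called higher in number 2, DESeq2 called 7, voom 0, no filter 4, the 5 CPM filter 0, the correction 4 and the older fit 1, which was CPLX1. Leaving out a library gave 2 to 19 members higher and 0 to 8 lower. At an unadjusted p under 0.05, 18 members higher became 9 with the 5 CPM filter, which left 31 members in the test, and 9 to 26 without single libraries, and 0 lower became 0 to 10. SYP and CPLX1 had an adjusted p of 0.0617 with voom, and of 0.0621 and 0.0551 with the 5 CPM filter. In the wider set, 8 higher became 5 with the 5 CPM filter and 1 to 24 without single libraries, and 6 lower became 2 to 30. The members' median of 0.29 was 0.18 with the 5 CPM filter, 0.27 with the correction and 0.26 to 0.35 without single libraries, and the wider set's of 0.039 was -0.0118 to 0.0377. Counts over all genes moved in the same fits as well. Why the counts moved was not tested.

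The labels do not say that replicate numbers mark a shared culture or batch, and with only 2 pairs the correlation of 0.209 between the deviations of same-numbered libraries does not establish a pairing. With the replicate block, 6 members were called higher, BSN, CPLX1, CPLX2, RAB3C, SYP and UNC13A, and 1 member was lower at an unadjusted p under 0.05. Depth limits SV2B, RIMBP2, SYT4, SV2C, CPLX2, SYN1, RIMS1 and SNAP25, which had few counts in at least 1 group. NSF had few counts in shRPRD1B and in shCtrl 1, and how reads shared with its copy were counted is not given.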
